A study of Phrynocephalus vlangalii with 2 samples.

Results

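The cytochromes P450 and the enzymes that work beside them in the handling of foreign and endogenous small molecules were followed in the toad-headed lizard Phrynocephalus vlangalii. Members were the assembled genes whose deposited annotation text holds cytochrome P450, glutathione S-transferase, glucuronosyltransferase, aldehyde dehydrogenase, alcohol dehydrogenase, dimethylaniline monooxygenase, arylamine N-acetyltransferase, carboxylesterase or retinol dehydrogenase. This gave 154 of the 58458 assembled genes, under 49 of 4819 annotation names. Another 3 assembled genes whose names hold ecdysteroid were left out. An annotation name stands for one enzyme or enzyme family, and the assembled genes that carry it are called its copies here. A copy can be a separate gene, an allele or a fragment of one transcript.

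The study compared adult lizards of the Madoi population with adult lizards of the Maqu population, a pair of sites on the Qinghai-Tibetan Plateau of which Madoi lies higher, and its title names high-altitude adaptation as the question. Each population was represented by 1 RNA-seq library made from pooled RNA of heart, liver, lung and muscle. The number of animals behind each library is not given in the labels. The Madoi library held 63636539 estimated reads and the Maqu library 66401014.

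Cytochromes P450 are haem enzymes that insert oxygen into their substrates, and flavin monooxygenases, carboxylesterases and the alcohol and aldehyde dehydrogenases also carry out this first, functionalising step. Glutathione S-transferases, glucuronosyltransferases and N-acetyltransferases then attach a polar group, which makes the product easier to excrete. In vertebrates the liver is the main site of both steps, while several P450 families instead make or break down sterols, bile acids, vitamin D, retinoids and eicosanoids.

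With 1 library per population there is no replicate check, so no test was possible and no p-value is given. A ratio describes the 2 libraries and not the populations, and its 95% interval (exact Clopper-Pearson) covers counting error only. In tissue pools, fewer cells of a type and less RNA per cell cannot be told apart. A name or copy was called higher or lower on 3 conditions: 10 reads or more over the pair of libraries, a ratio of 2-fold or beyond, and a counting interval clear of 1. Of the 154 copies, 34 had 0 Maqu reads and may not be lizard sequence. They are described apart, and all ratios of names below rest on the other 120 copies, which carry 48 names.

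The enzymes as a set were modestly more abundant in the Madoi library, and the excess lay in its abundant members. The 120 copies took 489528 Madoi reads and 409030 Maqu reads, which is 0.769% of the Madoi library and 0.616% of the Maqu library. The log2 ratio of these sums, Madoi over Maqu, was 0.37 (interval 0.36 to 0.38). A single glutathione S-transferase copy supplied 22.8% of the members' reads in Madoi and 19.2% in Maqu, and without it the log2 ratio was 0.30. Counted name by name, the members were centred close to no difference. The median log2 ratio over the 48 names was 0.04, against 0.00 over all 4702 names.

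Of the 48 names, 5 were higher and 3 were lower in Madoi, and 40 were neither. Over all names, 5.89% were called higher and 7.15% lower, against 10.4% and 6.25% of the enzyme names. The enzyme shares rest on 5 and 3 names. The names with at least 10000 reads had a median log2 ratio of 0.33 over 15 names, against 0.12 over all 1098 names of that depth. Names with 1000 to 10000 reads had a median of 0.10 over 20 names, against 0.00 over all names of that depth. Names with fewer reads had a median of −0.16 over 13 names, the same as over all such names.

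**Figure D1:**
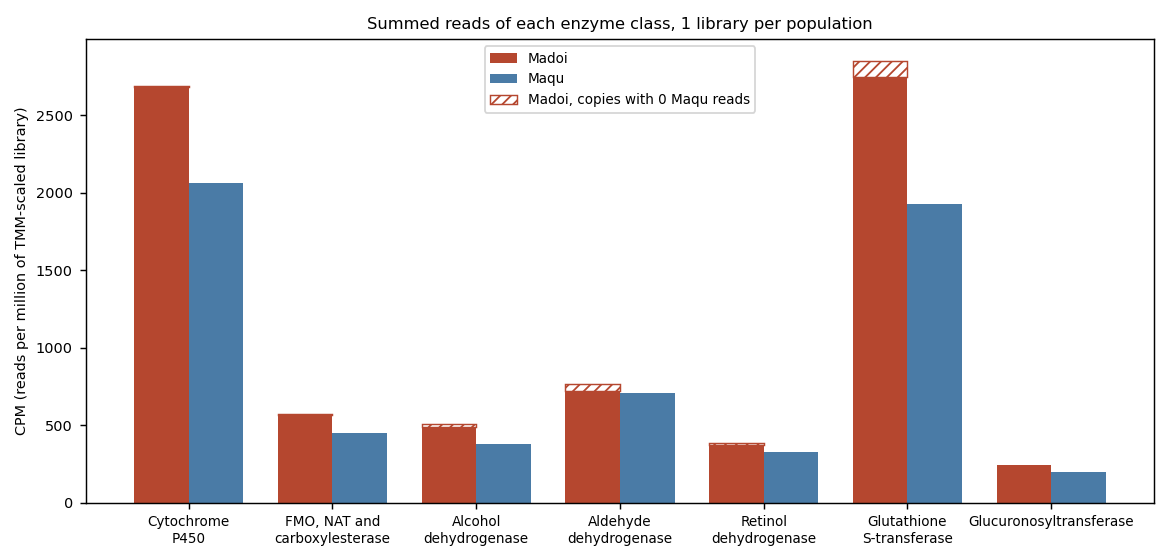
Summed reads, scaled to library size as CPM, for each enzyme class, with Madoi to the left of Maqu and the Madoi reads of copies with 0 Maqu reads hatched on top. Glutathione S-transferases and cytochromes P450 hold most of the reads and show the widest gaps, while aldehyde dehydrogenases stand at 722 CPM in Madoi and 709 in Maqu, an order that turns when library totals are used.

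The classes differed in size and in ratio. Glutathione S-transferases took 2747 CPM (reads scaled to library size) in Madoi and 1929 in Maqu. Their log2 ratio was 0.51. Cytochromes P450 took 2682 CPM in Madoi and 2064 in Maqu. Their log2 ratio was 0.38. These classes together made up most of the members' reads in both libraries. Alcohol dehydrogenases had a log2 ratio of 0.36, the flavin monooxygenases, N-acetyltransferases and carboxylesterases together 0.33, and glucuronosyltransferases 0.33. Retinol dehydrogenases stood at 0.18 and aldehyde dehydrogenases at 0.03. The aldehyde dehydrogenase sums were 45173 Madoi reads and 47886 Maqu reads, 0.0710% of the Madoi library and 0.0721% of the Maqu library, so the sign of that ratio turns with the scaling. These sums include a copy with 1185 Madoi reads and 1 Maqu read.

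**Figure D2:**
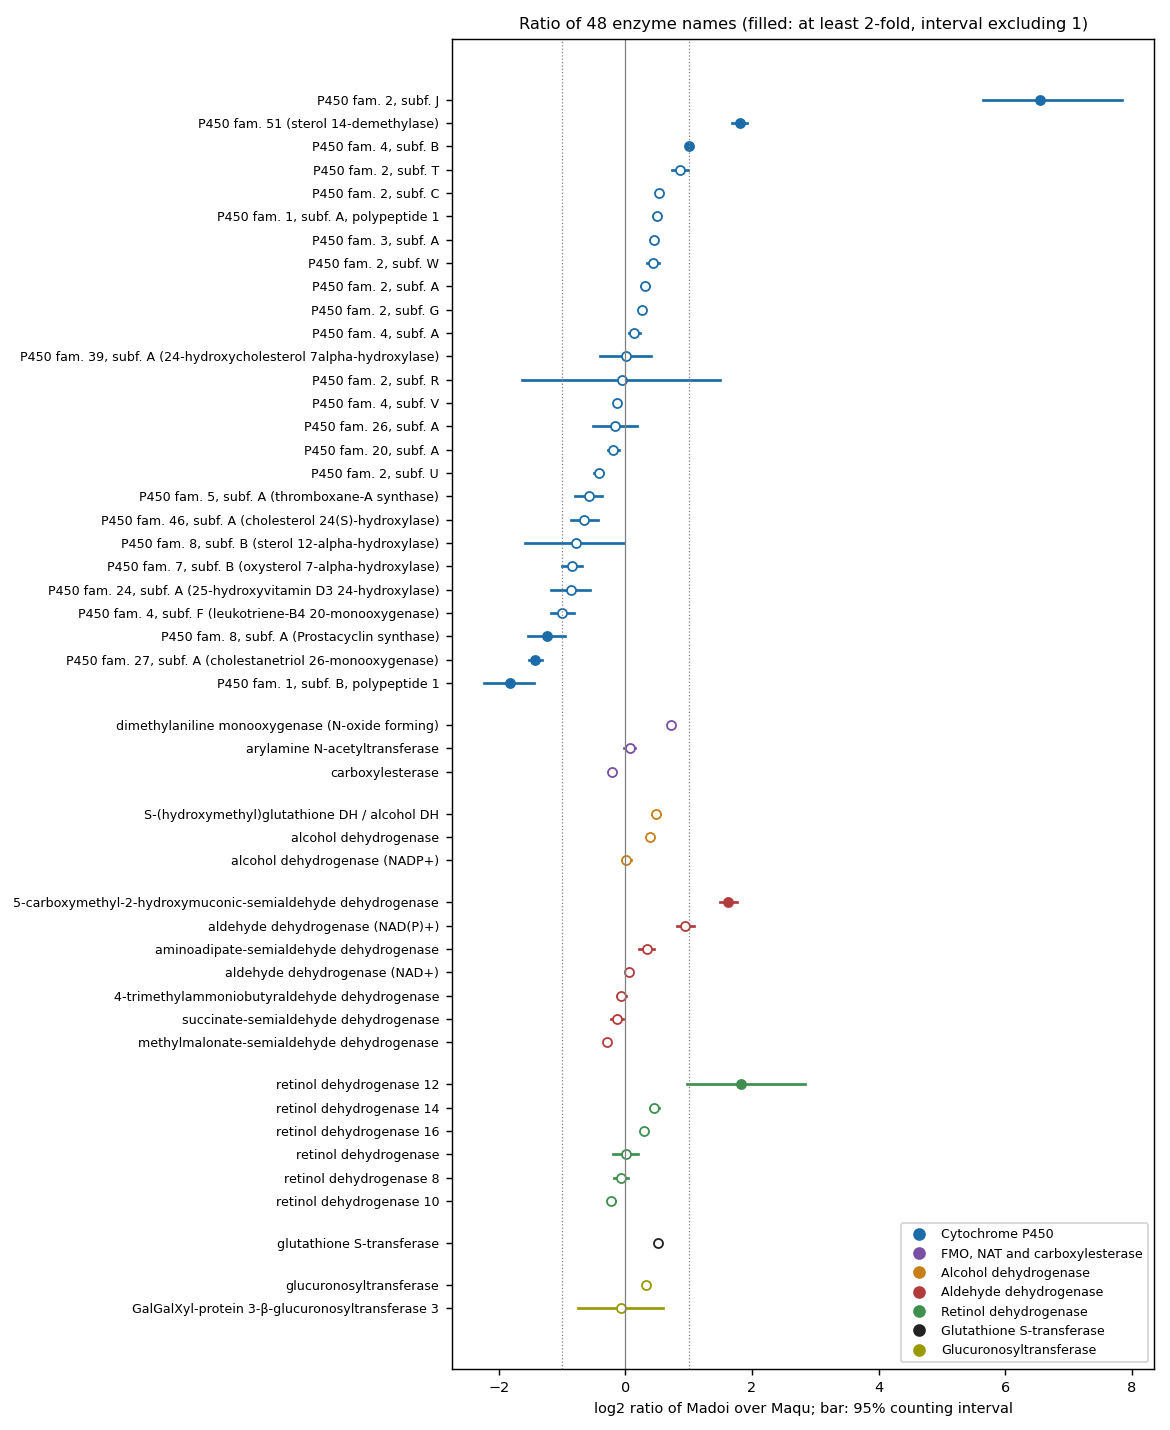
The log2 ratio of Madoi over Maqu for each of the 48 enzyme names, grouped by class, with the 95% counting interval as a bar and filled points for names called higher or lower. Most points lie between the dotted 2-fold lines, and the P450 names spread most widely, with CYP2J at 6.54 and CYP1B1 at −1.82.

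Among P450 families 1 to 3, which include enzymes that act on foreign compounds, the abundant names were above their Maqu level. Families 1 to 3 had 11 names with a median log2 ratio of 0.43, of which 8 were above 0, 1 was called higher and 1 lower. These calls are 9.09% each, against 5.89% and 7.15% over all names. The subfamily 2C, a group of liver drug- and fatty acid-oxidising enzymes in mammals, had 48746 Madoi reads and 36401 Maqu reads, a log2 ratio of 0.53. Subfamily 3A, whose mammalian members oxidise many drugs and steroids, had 32477 Madoi reads and 25521 Maqu reads, a log2 ratio of 0.46. Both ratios lay short of the 2-fold call. CYP1A1, the classic target of the aryl hydrocarbon receptor, had 6378 Madoi reads and 4901 Maqu reads, a log2 ratio of 0.49. Subfamilies 2T, 2W, 2A and 2G stood at 0.86, 0.43, 0.31 and 0.26. Below 0 in this group were subfamily 2U at −0.42, subfamily 2R at −0.06 with 8 Madoi reads and 9 Maqu reads, and CYP1B1.

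CYP1B1, a relative of CYP1A1 that in mammals is expressed mostly outside the liver, was lower in Madoi. It had 68 Madoi reads and 261 Maqu reads, a log2 ratio of −1.82 (interval −2.24 to −1.44), which is 3.54-fold lower. Of all names with 10 to 1000 reads, 15.1% were lower. The family 1 names, by their summed reads, therefore lay on opposite sides of 0. Within CYP1A1 the copies also did so, with comp7526_c0 at 0.74 and comp39009_c1 at −0.19. CYP2J, in mammals an epoxygenase of arachidonic acid, was far higher in Madoi, with 735 Madoi reads and 8 Maqu reads, a log2 ratio of 6.54 (interval 5.65 to 7.85). Its 1 copy lies just inside the line that sets apart copies with 0 Maqu reads. The copies nearest to that line were an aldehyde dehydrogenase (NAD+) with 1185 Madoi reads and 1 Maqu read, a glutathione S-transferase with 499 in Madoi and 2 in Maqu, and a pair of retinol dehydrogenase 12 copies with 37 and 10 reads in Madoi and 7 each in Maqu. Just outside it, copies with 0 Maqu reads had between 15 and 3079 Madoi reads.

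Family 4 enzymes hydroxylate the end of fatty acid chains. Subfamily 4B, which in mammals is prominent in lung, had 13751 Madoi reads and 7382 Maqu reads, a log2 ratio of 1.01 (interval 0.97 to 1.05), so it was called higher at the edge of the threshold. Scaled by library totals it stood at 0.96 and was not called, nor was its most read copy alone. Subfamily 4F, which inactivates leukotriene B4, had 370 Madoi reads and 798 Maqu reads. Its log2 ratio fell just short of the 2-fold call (interval −1.18 to −0.82), and at −1.05 was called lower when scaled by library totals. Subfamily 4A stood at 0.14 and subfamily 4V at −0.13. One assembly component held a copy of subfamily 4A and a copy of subfamily 4B, and both were higher in Madoi. The 4A copy had 59 Madoi reads and 10 Maqu reads, and the 4B copy had 157 in Madoi and 43 in Maqu.

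P450 enzymes of sterol, vitamin and retinoid metabolism lay mostly below their Maqu level, while CYP51 lay well above it. Over 8 such names the median log2 ratio was −0.71, 6 were below 0, 1 was called higher and 1 lower. These calls are 12.5% each, against 5.89% and 7.15% over all names. CYP24A, CYP26A, CYP39A, CYP46A and CYP8B had 10 to 1000 reads, a depth at which all names had a median of −0.16. CYP51, the sterol 14-demethylase of cholesterol synthesis, was higher in Madoi with 2448 reads, against 757 in Maqu, a log2 ratio of 1.80 (interval 1.69 to 1.92). CYP27A, which oxidises the sterol side chain on the way to bile acids, was lower with 960 Madoi reads, against 2779 Maqu reads, a log2 ratio of −1.42 (interval −1.53 to −1.32). CYP51 and CYP27A thus lay on opposite sides of 0, and a difference between their pathways was not tested. The oxysterol hydroxylase CYP7B had 529 Madoi reads and 1025 Maqu reads, a log2 ratio of −0.84. The sterol 12-alpha-hydroxylase CYP8B rested on 23 Madoi reads and 43 Maqu reads, with an interval from −1.59 to −0.03. The cholesterol 24-hydroxylase CYP46A stood at −0.65, and CYP39A, which acts on its product, at 0.00. CYP24A, which inactivates vitamin D, stood at −0.87 with 137 Madoi reads and 270 Maqu reads. The retinoic acid hydroxylase CYP26A stood at −0.16, with an interval from −0.51 to 0.17.

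Both eicosanoid synthases were below their Maqu level. Each had 10 to 1000 reads, a depth at which all names had a median of −0.16 and 15.1% were lower. Prostacyclin synthase (CYP8A) was lower with 139 Madoi reads, against 355 Maqu reads, a log2 ratio of −1.24 (interval −1.54 to −0.96). Thromboxane-A synthase (CYP5A) had 285 Madoi reads and 461 Maqu reads, a log2 ratio of −0.58 that was not called. CYP20A, an orphan enzyme, stood at −0.19.

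The flavin monooxygenase, carboxylesterase, N-acetyltransferase and alcohol dehydrogenase names were not called. Dimethylaniline monooxygenase, the flavin monooxygenases that oxidise nitrogen and sulphur, had 22552 Madoi reads and 14797 Maqu reads, a log2 ratio of 0.72. Carboxylesterase, which splits esters, had 10768 Madoi reads and 13445 Maqu reads, a log2 ratio of −0.21. Arylamine N-acetyltransferase stood at 0.07. Alcohol dehydrogenase had 22277 Madoi reads and 18368 Maqu reads, a log2 ratio of 0.39. S-(hydroxymethyl)glutathione dehydrogenase, which removes formaldehyde, stood at 0.48, and the NADP+-dependent alcohol dehydrogenase at 0.02.

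The aldehyde dehydrogenase names were close to their Maqu level apart from a few. Aldehyde dehydrogenase (NAD+), the most read name of the class, had 26256 Madoi reads and 27137 Maqu reads, a log2 ratio of 0.06. With copies beyond a log2 ratio of 5 left out, it stood at −0.004. The name 5-carboxymethyl-2-hydroxymuconic-semialdehyde dehydrogenase, which comes from the bacterial breakdown of aromatic compounds, was higher with 1811 Madoi reads, against 635 Maqu reads, a log2 ratio of 1.62 (interval 1.49 to 1.75). Its role in the lizard is not annotated. Aldehyde dehydrogenase (NAD(P)+) had 1333 Madoi reads and 746 Maqu reads, a log2 ratio of 0.95 that missed the call. With its copy at 0 Maqu reads included it stood at 1.26 and was called higher. Enzymes of amino acid and carnitine metabolism lay between −0.29, for methylmalonate-semialdehyde dehydrogenase of valine breakdown, and 0.33, for aminoadipate-semialdehyde dehydrogenase of lysine metabolism. Between these were succinate-semialdehyde dehydrogenase of GABA breakdown at −0.13 and 4-trimethylammoniobutyraldehyde dehydrogenase of carnitine synthesis at −0.07.

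Retinol dehydrogenases, which convert retinol to retinal or back, held 1 called name of 6, which was higher. This is 16.7%, against 5.89% over all names. Of all names with 10 to 1000 reads, the depth of the called name, 9.19% were higher. Retinol dehydrogenase 16, a liver enzyme in mammals, had 13715 Madoi reads and 12055 Maqu reads, a log2 ratio of 0.30. Retinol dehydrogenase 14 stood at 0.45, the unnumbered retinol dehydrogenase at 0.01, retinol dehydrogenase 8 at −0.07 and retinol dehydrogenase 10 at −0.22. Retinol dehydrogenase 12, known from the retina, was higher at 1.82 but rested on 47 Madoi reads and 14 Maqu reads over copies of 246 and 210 bases, with an interval from 0.97 to 2.83. With its copy at 0 Maqu reads included it stood at 4.70.

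Among the conjugating enzymes, glutathione S-transferase had 171861 Madoi reads and 130260 Maqu reads over 12 copies, a log2 ratio of 0.51. Glucuronosyltransferase, which attaches glucuronic acid, had 15244 Madoi reads and 13119 Maqu reads over 4 copies, a log2 ratio of 0.33. The other glucuronosyltransferase name, galactosylgalactosylxylosylprotein 3-beta-glucuronosyltransferase 3, builds the linker of proteoglycans and does not conjugate foreign compounds. It had 37 Madoi reads and 42 Maqu reads, a log2 ratio of −0.07.

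**Figure D3:**
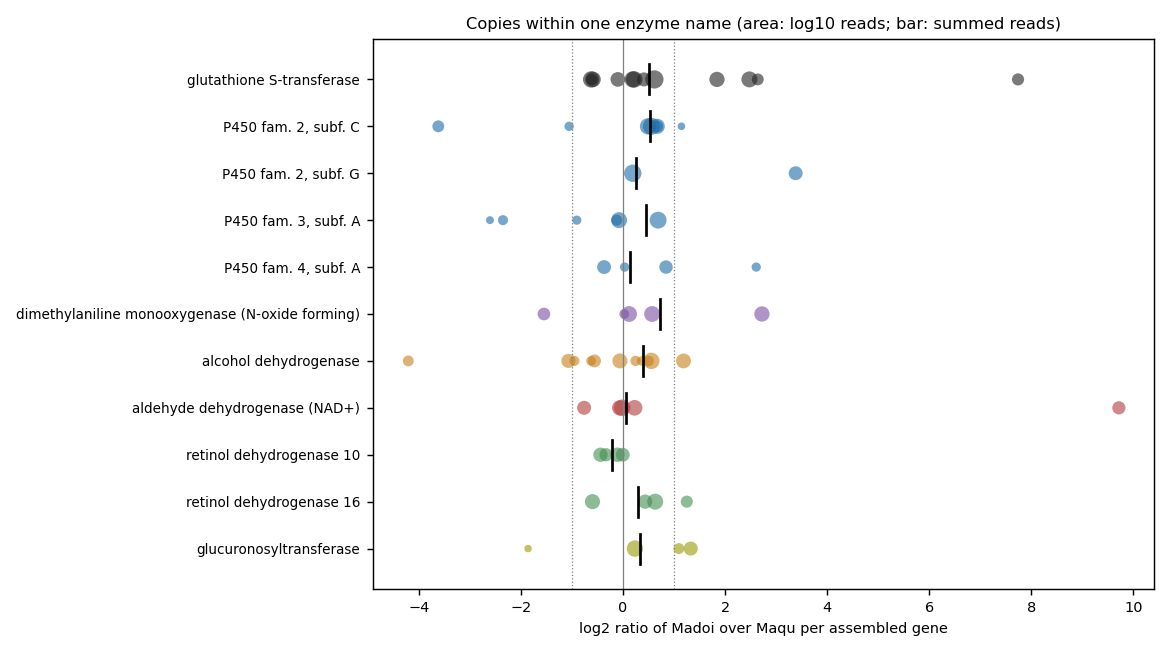
The log2 ratio of Madoi over Maqu of each copy with Maqu reads, for 11 names with several copies, with larger points for copies with more reads and a black bar at the ratio of the name's summed reads. Several names whose sums lie within 2-fold hold copies beyond the dotted lines, such as dimethylaniline monooxygenase with copies between −1.55 and 2.72.

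Copies of 1 name often lay on opposite sides of 0, and names near 0 held called copies. Of the 120 copies with Maqu reads, 17 were higher and 13 lower in Madoi. Over all 48099 assembled genes with Maqu reads that were tested, 13.1% were higher and 13% lower, 26.2% in all, so the members' 14.2% and 10.8% lay near the background. The median log2 ratio over the copies was 0.02, against −0.01 over all assembled genes with Maqu reads. Copies under 500 bases had a median of −0.57 over 34 copies, and longer ones 0.15 over 86 copies. Over all assembled genes those medians were −0.04 and 0.00. The 154 copies came from 141 assembly components, and 12 components held 25 of the copies, so some copies can be pieces of 1 gene.

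Of the 12 glutathione S-transferase copies with Maqu reads, 4 (33.3%) were called higher and none lower. Over all tested assembled genes with Maqu reads, 13.1% were higher and 13% lower, and the class share rests on few copies. The dominant copy, comp30633_c0, was the most abundant member by length-adjusted level, at 1866 RPKM in Madoi and 1078 in Maqu, and it ranked 29 of all assembled genes in Madoi and 54 in Maqu. Its 111436 Madoi reads and 78606 Maqu reads gave a log2 ratio of 0.61, short of the call. Copy comp31948_c0 was higher with 13204 Madoi reads and 2561 Maqu reads, 5.56-fold. Copy comp15356_c0, whose deposited ontology terms name the microsome and leukotriene metabolism, was higher with 5820 Madoi reads and 1754 Maqu reads, 3.58-fold. Copies comp5153_c0 and comp36186_c0 were higher on fewer reads, 349 in Madoi against 60 in Maqu for comp5153_c0 and 499 in Madoi against 2 in Maqu for comp36186_c0. The interval of the last ran from 6.21 to 11.1 on the log2 scale. On the other side were comp26451_c0, with 8495 Madoi reads and 14151 Maqu reads, and comp35045_c0, with 3979 in Madoi and 6464 in Maqu. Their log2 ratios of −0.63 and −0.59 were not called.

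Among the flavin monooxygenases, comp13061_c0 had 7060 Madoi reads and 1155 Maqu reads and was 6.59-fold higher in Madoi. Copy comp8270_c0 of the same name was lower, with 183 Madoi reads and 580 Maqu reads. The most read copies, comp23798_c0 and comp39842_c1, stood at 0.57 and 0.12. By RPKM, comp39842_c1 had 59.03 in Madoi and 75.52 in Maqu, so its order turns with the measure. Alcohol dehydrogenase also split. Copy comp33720_c0 was higher with 3622 Madoi reads and 1720 Maqu reads, while comp25381_c0 was lower with 795 in Madoi and 1804 in Maqu. Copy comp27079_c0 was lower with 9 Madoi reads and 189 Maqu reads, but is only 209 bases long. Another copy of its component had 38 Madoi reads and 80 Maqu reads.

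Within the P450 names, copies of subfamily 2C with many reads had similar ratios. The 3 most read 2C copies had log2 ratios of 0.56, 0.49 and 0.67, while comp18188_c0 was lower with 28 Madoi reads and 378 Maqu reads. The main 3A copy, comp26312_c2, had 24768 Madoi reads and 16609 Maqu reads, and the next, comp40237_c0, had 7564 in Madoi and 8622 in Maqu. The 2G copy comp39503_c0, the second most abundant member at 294 RPKM in Madoi and 268 in Maqu, carries the deposited term for sensory perception of smell, and 2G enzymes are known from mammalian nasal tissue. It had a log2 ratio of 0.19. Beside it, comp34773_c0 was 10.4-fold higher, with 2005 Madoi reads and 207 Maqu reads. The main glucuronosyltransferase copy, comp33515_c0, had a log2 ratio of 0.23, and comp37955_c0 was higher with 1745 Madoi reads and 751 Maqu reads. Copy comp38107_c0 of aldehyde dehydrogenase (NAD+) was higher with a log2 ratio of 9.72 (interval 7.84 to 15.6), and the other 4 copies of that name were not called.

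**Figure D4:**
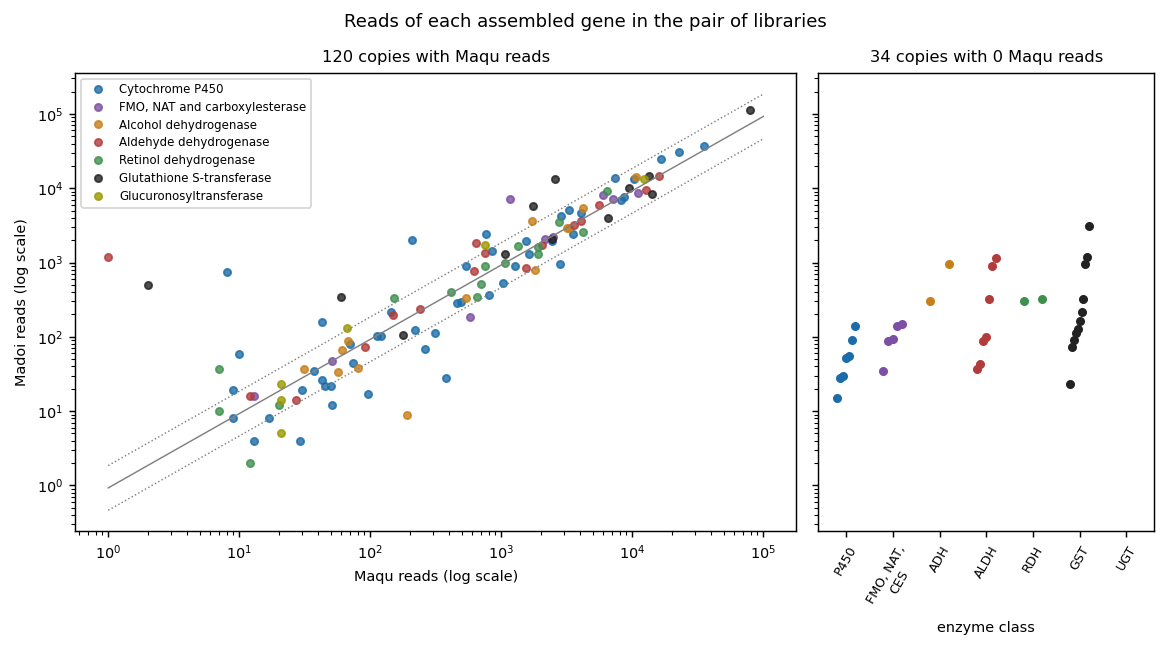
Madoi reads against Maqu reads for the 120 copies with Maqu reads, on log axes with a solid line at equal scaled abundance and dotted lines at 2-fold, and, at right, the Madoi reads of the 34 copies with 0 Maqu reads by class. The 4 copies with most reads lie between the dotted lines, and glutathione S-transferases make up 11 of the 34 points at right.

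The 34 copies with 0 Maqu reads made up 22.1% of the members, against 17.7% of all assembled genes and 20.2% of the annotated ones. They held 11809 Madoi reads, 2.36% of the members' Madoi reads. No member had 0 Madoi reads. Glutathione S-transferase had 11 such copies of 23, aldehyde dehydrogenase 7 of 23, P450 7 of 55 and glucuronosyltransferase 0 of 6. The class shares are set by few copies, with intervals of 26.8% to 69.4% for glutathione S-transferase and 5.27% to 24.5% for P450.

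The largest of them were a glutathione S-transferase, comp39675_c0, with 3079 Madoi reads, another, comp35882_c0, with 1197, and an aldehyde dehydrogenase (NAD+), comp40311_c0, with 1139. Set against a floor of 3 Maqu reads, comp39675_c0 had a ratio of 1108, and the lower bound of its counting interval was 900.3-fold higher in Madoi. S-(hydroxymethyl)glutathione dehydrogenase followed with 966 Madoi reads, the glutathione S-transferase comp34196_c0, with 949 and the aldehyde dehydrogenase (NAD+) comp32742_c0, with 900. All other such copies had 328 Madoi reads or fewer. Single copies of aldehyde dehydrogenase (NAD(P)+), retinol dehydrogenase 10, alcohol dehydrogenase (NADP+) and retinol dehydrogenase 12 had 326, 323, 305 and 301. The P450 copies were small: the most read, of subfamilies 2U, 3A and 4V, had 139, 90 and 56 Madoi reads. A flavin monooxygenase copy had 150 and a carboxylesterase copy 94. The name carboxylesterase type B consisted only of such copies, with 142, 89 and 35 Madoi reads.

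The assembly gave these copies fewer transcripts and shorter lengths than the rest. All 34 were assembled as a single transcript, against 91 of the 120 copies with Maqu reads, and their median length was 532.5 bases, against 1378. Copies with 0 Maqu reads over the whole assembly were likewise mostly single transcripts, 96.9%, against 86.2% of the others. Among the glutathione S-transferases, 2 of the 11 carry the deposited ontology term for DDT-dehydrochlorinase activity, an activity known from insects, and none of the 12 copies with Maqu reads does. Which organism these copies come from was not tested.

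The authors' deposited table marks 31 of the members as differing between the libraries, 27 as higher in Madoi and 4 as lower. Of all assembled genes, the authors' deposited table marks 9.23% as higher and 1.2% as lower. Of the 27 marked as higher in the authors' deposited table, 17 are copies with 0 Maqu reads.

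**Figure D5:**
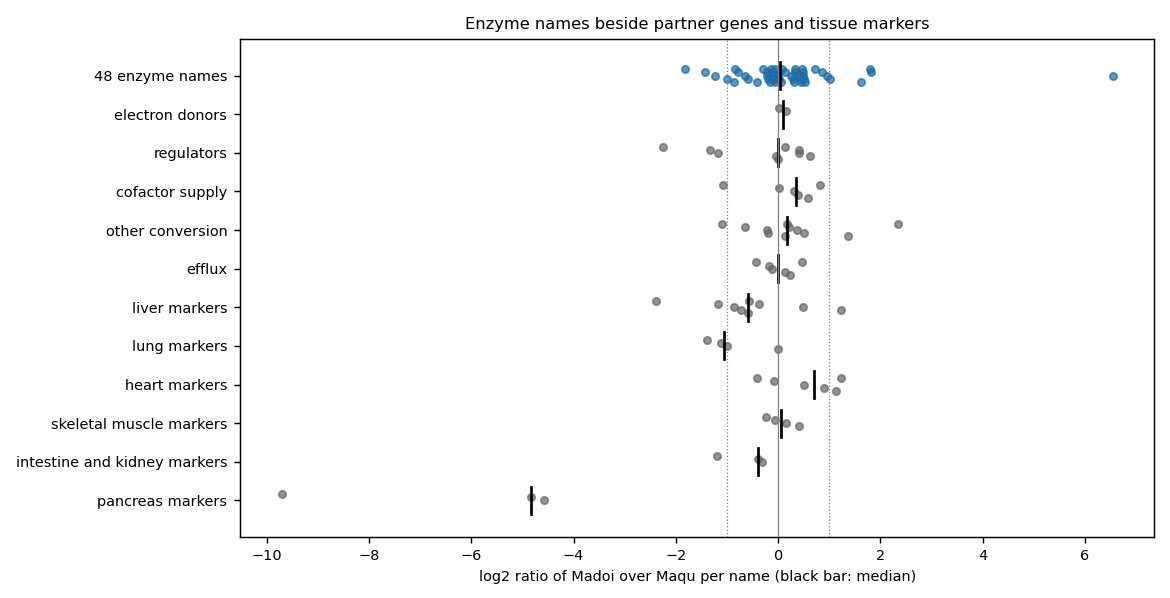
The log2 ratio of Madoi over Maqu per name for the 48 enzyme names, for the lists of partner genes and for the tissue marker lists, with a black bar at each median. The partner lists centre near the enzyme names, liver markers have a median of −0.58 and pancreas markers lie at −4.58 or lower.

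The genes that work with these enzymes were read from a list of 35 annotation names, 34 of which had Maqu reads. Of the 34, 2 were higher and 5 lower in Madoi, which is 5.88% and 14.7%, against 5.89% and 7.15% over all names. Their median log2 ratio was 0.14. The 2 listed electron donors of P450 were near their Maqu level, with NADPH-ferrihemoprotein reductase at 0.02 and cytochrome-b5 reductase at 0.16. Cytochrome b5, adrenodoxin and adrenodoxin reductase were also planned and have no value here. Among 9 regulators, 3 were lower: the vitamin D receptor (NR1I1) at −1.18, and members 2 and 3 of subfamily 2 group A, the hepatocyte nuclear factor 4 group, at −2.25 and −1.33. Over all names 7.15% were lower, and 15.1% of those with 10 to 1000 reads, a depth that includes member 2. Member 1 of that group stood at 0.40. The aryl hydrocarbon receptor at 0.42 and NR1I3, the constitutive androstane receptor, at 0.14, both known for inducing P450 genes, were not called. NR1I2, a further receptor of that kind, was not among the 9 regulators and has no value here. The text for aryl hydrocarbon receptor nuclear translocator-like protein 1, a clock protein, had first been matched to the translocator and was taken off the list as a different gene after its value had been seen. It was lower at −2.62, and with it the list had 6 lower of 35 names and the regulators 4 of 10.

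Genes that supply glutathione were not called, with the catalytic subunit of glutamate-cysteine ligase at 0.82, its regulatory subunit at 0.58, glutathione reductase at 0.38 and glutathione synthase at 0.01. NRF2, the factor known to drive many of these genes, stood at 0.63 and was not called. UDPglucose 6-dehydrogenase, which makes the sugar donor of glucuronosyltransferases, was lower at −1.09. NAD(P)H dehydrogenase (quinone), which reduces quinones, was higher with 18123 Madoi reads and 3864 Maqu reads. Carbonyl reductase 4 was higher at 1.36, and aldehyde oxidase was lower at −1.09. The other 8 conversion enzymes with Maqu reads were not called. Alcohol and aryl sulfotransferase, which add sulphate, stood at 0.51 and 0.37, beta-glucuronidase at 0.21, monoamine oxidase at 0.17 and aldehyde reductase at 0.14. Below 0 were soluble epoxide hydrolase at −0.65, catechol O-methyltransferase at −0.23 and microsomal epoxide hydrolase at −0.20. None of the 6 efflux transporters was called, and they ranged from −0.43 for ABCG2 to 0.47 for the bile salt exporter ABCB11.

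Tissue marker levels differed between the pools, and their part in the enzyme ratios was not tested. Markers of all 4 labelled tissues had reads in both libraries, and their calls below stand against the same 5.89% higher and 7.15% lower over all names. The 9 liver markers had a median log2 ratio of −0.58, with 1 higher and 2 lower, and summed to 2014 CPM in Madoi and 2983 in Maqu. Of the 9, 7 lay below 0 and 2 above, apolipoprotein A-I at 1.23 and glycine N-methyltransferase at 0.48. Albumin, transferrin, phenylalanine hydroxylase, urate oxidase and apolipoprotein B were also planned as liver markers and have no value here. The same holds for betaine-homocysteine S-methyltransferase and carbamoyl-phosphate synthase. The summed enzyme reads lay above, and the summed liver marker reads below, their Maqu level, and a link between them was not tested. The 4 lung markers had a median of −1.06 with 2 lower, and summed to 509 CPM in Madoi and 898 in Maqu. The 6 heart markers had a median of 0.70 with 2 higher, and the 4 skeletal muscle markers a median of 0.05 with none called. The 3 intestine and kidney markers had a median of −0.40 with 1 lower. The 3 pancreas markers, from a tissue not in the labels, were all lower and summed to 0.911 CPM in Madoi and 133 in Maqu.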

How the data were processed

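The 2 libraries, 1 per population, were read from 1 deposited table. The series' design text names Trinity for the assembly and BLAST for the annotation; the aligner and counter were not given in the sources used here. Files deposited by the authors hold estimated counts per assembled gene, which were rounded to whole numbers here, and RPKM, used here for levels between genes and 1 alternative. The authors' deposited log2 fold changes, lengths and p-values were not recomputed, and no source used here names the test behind the p-values.

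TMM factors from edgeR 4.0.16 under R 4.3.3, 0.983 in Madoi and 1.02 in Maqu, scaled the library totals. Reads of copies with one annotation text were summed without copies at 0 Maqu reads. Ratios carry a pseudocount of 0.5 reads and an exact 95% Clopper-Pearson interval (scipy 1.17.1). PCR reads are not independent molecules, so intervals and the floor of 3 counts cover counting error only. All 120 member copies and 48 names passed the minimum of 10 reads.

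Simulated Poisson counts for 58458 genes, 200 of them changed, returned 100% of the 3-fold and of the 8-fold changes, and 0.922% of unchanged genes were called. Poisson counts hold counting error only. These shares therefore do not cover differences between animals or pools, nor the assignment of reads to similar copies. The read depth of the changed genes is not given here, so the 100% cannot be carried over to copies with few reads.

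Names given were, in each class, the 3 with most reads and the 3 highest and 3 lowest ratios among those with at least 100 reads, and the 3 largest copies at 0 Maqu reads. Single copies and further names were chosen after their values were seen. Members, partner and marker lists were chosen with earlier results of these data known, and their annotation texts were matched by hand with the table open. The partner and marker lists as planned named further genes that have no value here. No sequence is printed, as none was used here.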

Additional observations from a re-analysis of the deposited data

How the results depend on the processing

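Alternatives were other scalings (library totals, DESeq2 1.42.0 size factors), read minimums of 0 or 50, a 4-fold threshold, a pseudocount of 5 reads, calls without the interval, and other ways to combine copies. Summed RPKM and leaving out copies under 500 bases were added after seeing the data. At 4-fold, 1 name was higher and 0 lower, and 9 copies were higher and 5 lower. The shares of all names and all assembled genes called at 4-fold are not given here, so these counts have no background. With the authors' RPKM summed over copies, 5 names were lower. Under all other alternatives run, 4 to 7 names were higher and 3 to 4 lower. Under the other scalings, read minimums and pseudocount and without the interval, 16 to 18 copies were higher and 10 to 15 lower. Background shares for these name and copy counts are not given either. Of the 86 copies of 500 bases or more, 14 were higher and 6 lower, which is 16.3% and 6.98%. Over all 24101 tested assembled genes of that length with Maqu reads, 9.17% were higher and 8.39% lower. The members' shares rest on 14 and 6 copies. The median over names ranged from −0.01, by library totals and by RPKM, to 0.14 with all copies summed, and so has no stable sign. No name changed direction while called, but ratios moved. The ratio left its main counting interval for 17 of the 48 names by summed RPKM, 14 by the most read copy and 13 by library totals. With all copies summed, 8 did so. Alcohol dehydrogenase had 172.68 RPKM in Madoi and 169.59 in Maqu, and subfamily 4A stood at −0.37 by its most read copy. CYP2J has no value when copies beyond a log2 ratio of 5 are left out, nor retinol dehydrogenase 12 without copies under 500 bases. The 4-fold and no-interval settings change calls only and give no other ratios. Median log2 ratios over all names were 0.00 by TMM, −0.05 by library totals and 0.01 by DESeq2 size factors. No paired analysis was possible because each population has 1 library. Names with few reads in either library are limited by depth. CYP2R, CYP8B, CYP2J, retinol dehydrogenase 12 and galactosylgalactosylxylosylprotein 3-beta-glucuronosyltransferase 3 have intervals wider than 1 on the log2 scale. Of these, CYP2J and retinol dehydrogenase 12 were called higher.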
